A study of Mus musculus with 6 samples.

Results

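Messenger RNA of 49 genes of NF-kB signalling and of the cytokines and chemokines linked to it was followed in mouse podocytes, the epithelial cells that wrap the kidney's glomerular capillaries, with and without mechanical stretch. The genes were set by a list of names, and 46 of the 49 were measured among 18193 genes on Affymetrix mouse arrays. The other 3 (Nfkb1, Il1rl1 and Ripk2) were not analysed here. Both groups came from SVI, a conditionally immortalized line, so all values are from 1 line and not from podocytes in a kidney. All cells had been allowed to differentiate for 1 to 2 weeks at 38 °C in RPMI with 10% FBS. The 3 unstretched arrays are from cells left at rest, and the 3 stretched arrays from cells under cyclic biaxial stretch for 3 days at 0.5 Hz, with a linear strain of at most 5%. The series speaks of 3 independent batches but does not say whether these are cultures, so the p-values rest on how much these arrays vary, and some of that may be technical.

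NF-kB factors are dimers of Rel proteins. In resting cells inhibitor proteins of the IkB family hold them in the cytoplasm, and signals from receptors of tumour necrosis factor, interleukin-1 or microbial products lead to loss of the inhibitor and entry of the dimer into the nucleus. There it switches on genes of cytokines, chemokines and adhesion molecules, and also genes of its own inhibitors and subunits. In the glomerulus, podocytes are known to express several of these receptors and to release chemokines that attract leukocytes.

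Each gene was read by its brightest probe set, a group of short probes. For 4 of the 46 (Cxcl1, Nfkbib, Nfkbie and Tnfaip2) that probe set carries a suffix that marks probes which other transcripts may share. Values are log2 expression values of that probe set, and a change is the stretched minus the unstretched mean, with its standard error (SE) from limma and n = 3 arrays per group. A change passed at a Benjamini-Hochberg adjusted p under 0.05 over all genes. Probe sets differ in how brightly they read, so single genes are not ranked by level, and dim or bright says only that a probe set's mean lies below or above that of the median gene (5.74). The array medians lay between 4.92 and 4.98, and Pearson correlations across probe sets were 0.993 to 0.997 within groups and 0.987 to 0.990 between them. The SD over probe sets was 2.03 to 2.05 in unstretched and 2.07 to 2.10 in stretched arrays, so the distributions were not fully alike. The 3' minus 5' difference of the beta-actin control, a sign of RNA quality, averaged 1.57 on the log2 scale at rest (SD 0.03, n = 3) and 1.30 under stretch (SD 0.05, n = 3), with a two-sided exact permutation p of 0.1, the smallest that 3 against 3 can give. The Gapdh control averaged 0.25 at rest (SD 0.07) and 0.16 under stretch (SD 0.10), with an exact permutation p of 0.4.

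Markers of the labelled cell type were only in part bright. Of 9 podocyte markers measured, 4 were dimmer on average than the median gene, among them the slit diaphragm gene Nphs1 (4.73 to 5.18 over all arrays), while Wt1, Synpo, Podxl, Cd2ap and Kirrel lay above it. Synpo and Clic5 fell, and the mean of the 9 was 6.71 to 6.83 in unstretched and 6.59 to 6.67 in stretched arrays. Of 12 macrophage markers 10 were below the median gene, 1 rose (Cd14) and 2 fell (Cd68 and Csf1r). Their mean log2 value was 5.12 to 5.17 in unstretched and 5.01 to 5.12 in stretched arrays. The leukocyte marker Ptprc read 4.01 to 4.46, below the lower quartile of genes (4.44) on average. All 7 T cell, 6 neutrophil and 8 endothelial markers were below the median gene, and 0 of them passed in limma. Of 6 mesangial and fibroblast markers Pdgfrb rose, and their mean was 5.49 to 5.55 in unstretched and 5.59 to 5.69 in stretched arrays. The 7 proximal tubule markers averaged 5.89 to 6.03 in unstretched and 6.58 to 6.86 in stretched arrays, with 3 that rose. These were Slc17a1 (by 2.30), Aqp1 (by 2.09) and Cubn (by 0.49). Slc34a1, Lrp2, Slc5a2 and Slc22a6 had changes of 0.12, 0.06, 0.12 and -0.09 and did not pass. What part RNA quality or these other cell types have in the changes below was not tested.

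Stretched cells had lower levels of a small set of inflammatory genes. Of the 46 genes, 7 fell, 2 rose and 37 did not pass. The largest fall was in Saa3, an acute phase protein gene, which was 2.53-fold lower. It was followed by the chemokine genes Ccl20 (2.04-fold lower) and Cxcl10 (1.93-fold lower), the TNF receptor gene Tnfrsf1b (1.80-fold lower) and the NF-kB subunit gene Relb (1.74-fold lower). Cx3cl1 and Map3k8 fell less, and Il11 and Il1r1 rose. As these are bulk samples, fewer cells that express a gene and less RNA per cell cannot be told apart.

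These counts stand against many changes elsewhere on the arrays. Over all 18193 genes 14.7% passed, with 1452 that rose (7.98%) and 1229 that fell (6.76%). When the arrays were quantile normalized again, 1149 rose and 1544 fell, and with cyclic loess 1192 and 1481. Without stretched replicate 1 the counts were 872 and 789, and without stretched replicate 3 they were 983 and 767. Among the 46 genes 19.6% passed, 4.35% upward and 15.2% downward. The share that passed depends on brightness. Of the 25 members at or above the median gene 28.0% passed, against 24.8% of all genes as bright, and of the 21 dimmer members 9.52% passed, against 4.69%. The median change over the 46 was -0.10, with 16 above and 30 below 0, and over all genes it was -0.02. The groups did not overlap in 17 of the 46 (37.0%), of which 5 were higher and 12 lower in stretched cells, while 32.6% of all genes did not overlap. Of the brighter members 24% fell, against 10.5% of all genes as bright. Of the dimmer members 4.76% fell, which is 1 gene, against 3.00% of all genes as dim. The share that changed in either direction was thus near the background. The share that fell was above it, mainly among the brighter members. The list was drawn up with earlier results of these arrays known, so no test over the list is given.

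**Figure D1:**
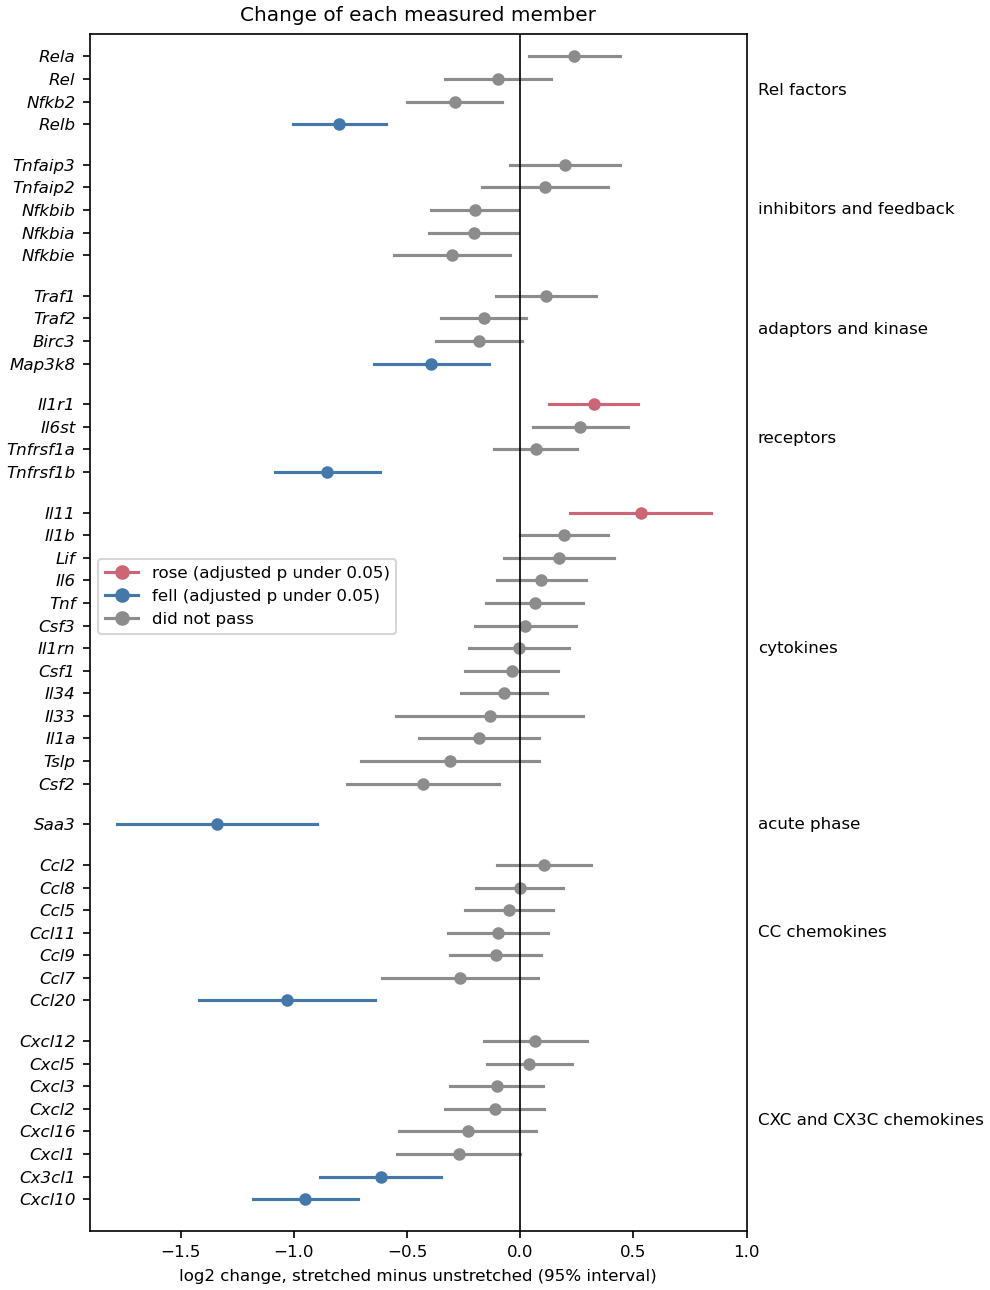
Change of each of the 46 measured genes (x axis, log2 of stretched minus unstretched, n = 3 arrays per group), grouped by role, with points for the limma estimate and bars for its 95% interval. The 7 genes that fell lie between -1.34 and -0.39, and the 2 that rose at 0.32 and 0.53.

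Among the Rel factors only Relb passed, of the 4 measured (25%, against 14.7% of all genes). Relb, the subunit of the alternative NF-kB pathway, read 7.34, 7.17 and 7.15 in the unstretched and 6.50, 6.31 and 6.45 in the stretched arrays. Every stretched value lay below every unstretched one, and the gene fell by 0.80 on the log2 scale (SE 0.09, limma adjusted p = 3.39e-04). Nfkb2, whose product is processed into the usual partner of RelB, read 8.96, 8.74 and 8.75 in the unstretched and 8.56, 8.61 and 8.43 in the stretched arrays. These groups did not overlap either, but the change of -0.29 (SE 0.09) did not pass (adjusted p = 0.0675). Rela, the main activating subunit of the canonical pathway, read 9.60, 9.46 and 9.38 in the unstretched and 9.81, 9.67 and 9.68 in the stretched arrays. Here the stretched arrays were the higher ones, with a change of 0.24 (SE 0.09, adjusted p = 0.115) that did not pass. Rel, a subunit best known from lymphoid cells, was dim and had a change of -0.10 (adjusted p = 0.607). Leaving out any single array kept the Relb call, and its adjusted p was at most 0.00225 over the 15 alternatives run.

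The inhibitors did not pass by their brightest probe sets. Nfkbia encodes the best studied IkB protein and is itself a target of NF-kB. It read 11.12, 11.28 and 11.35 in the unstretched and 11.08, 11.05 and 10.9996 in the stretched arrays. Each stretched value was below each unstretched one, and the change of -0.21 (SE 0.09) had an adjusted p of 0.161. Nfkbib, a second IkB, read 7.02, 6.89 and 7.0041 in the unstretched and 6.82, 6.82 and 6.67 in the stretched arrays, again without overlap (change -0.20, adjusted p = 0.163). Nfkbie, another IkB, had a change of -0.30 (SE 0.12, adjusted p = 0.116) with overlap. Tnfaip3 encodes a ubiquitin-editing enzyme that shuts NF-kB signalling down. Its change was 0.20 (95% interval -0.05 to 0.44, adjusted p = 0.279). For Tnfaip2, a gene first found as induced by TNF, the change was 0.11 (adjusted p = 0.637).

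Of the adaptors and kinases near the receptors, 1 of 4 passed (25%, against 14.7% of all genes). Map3k8 encodes a kinase that carries signals of TNF and Toll-like receptors to the ERK pathway and is held inactive by the Nfkb1 precursor. It read 7.90, 7.72 and 7.57 in the unstretched and 7.53, 7.18 and 7.30 in the stretched arrays. The lowest unstretched value lay just above the highest stretched one, and the gene fell by 0.39 (SE 0.12, limma adjusted p = 0.0440). That call was close to the threshold. It ended without unstretched replicate 1 (adjusted p = 0.137) or 2 (0.0950), without stretched replicate 2 (0.159) or 3 (0.129), with arrays centred on their medians (0.0656) and with every probe set tested (0.0546). Traf2, an adaptor of TNF receptors, read 7.16, 7.28 and 7.35 in the unstretched and 7.07, 7.11 and 7.11 in the stretched arrays. The stretched arrays were all lower, but the change of -0.16 did not pass (adjusted p = 0.251). Birc3, a ubiquitin ligase bound by Traf2, read 4.58, 4.51 and 4.59 in the unstretched and 4.32, 4.49 and 4.33 in the stretched arrays, also without overlap (change -0.18, adjusted p = 0.203). Traf1 was dim and had a change of 0.12 (adjusted p = 0.510).

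The receptors moved in both directions. Tnfrsf1b, the TNF receptor without a death domain, read 7.51, 7.61 and 7.75 in the unstretched and 6.64, 6.72 and 6.95 in the stretched arrays. No stretched array reached the level of an unstretched one, and the gene fell by 0.85 (SE 0.11, limma adjusted p = 4.99e-04). Tnfrsf1a, the death domain receptor for the same ligand, had a change of 0.07 with a 95% interval of -0.12 to 0.25 (adjusted p = 0.653). Il1r1, the signalling receptor for interleukin-1, read 8.65, 8.75 and 8.59 in the unstretched and 9.01, 8.88 and 9.08 in the stretched arrays. All stretched values were above all unstretched ones, and the gene rose by 0.32 (SE 0.09, limma adjusted p = 0.0337). Its call ended without unstretched replicate 1 (adjusted p = 0.0782) or 3 (0.0805) and without stretched replicate 1 (0.109) or 3 (0.126). It also ended after quantile normalization again (0.0949), with cyclic loess (0.0825) and with both its probe sets averaged, where the change was 0.14 (0.235). Il6st, the shared signalling subunit of the receptors for interleukin-6, interleukin-11 and Lif, read 9.61, 9.54 and 9.38 in the unstretched and 9.74, 9.69 and 9.90 in the stretched arrays. The groups did not overlap, and the change of 0.27 (SE 0.10) missed the threshold (adjusted p = 0.0928).

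**Figure D2:**
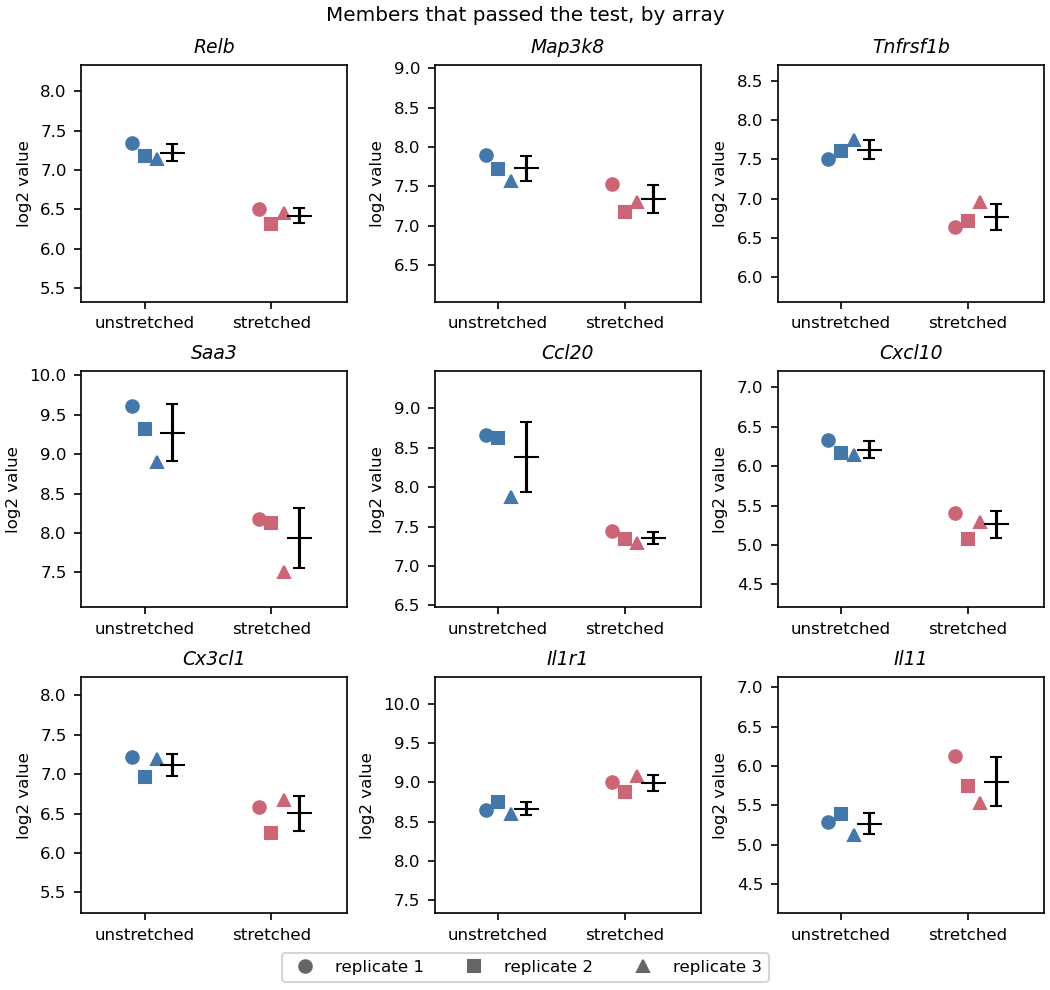
Log2 values of the 9 genes that passed, in each of the 3 unstretched (blue) and 3 stretched (red) arrays, with the mean and SD of each group in black; every panel spans the same number of log2 units. In all 9 genes the groups do not overlap, and the spread within groups is widest for Saa3 and, among unstretched arrays, for Ccl20.

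Of 13 cytokine genes, 1 rose and 0 fell in limma (7.69%, against 14.7% of all genes). Of the 13, 10 lie below the median gene, where 4.69% of all genes passed. Il11, a fibroblast and epithelial cytokine of the interleukin-6 family, read 5.29, 5.39 and 5.13 in the unstretched and 6.13, 5.75 and 5.52 in the stretched arrays. The lowest stretched value was above the highest unstretched one, and the gene rose by 0.53 (SE 0.14, limma adjusted p = 0.0282). Il11 was dim, with a mean of 5.54 over all arrays. The call ended without unstretched replicate 1 (adjusted p = 0.0646) or 3 (0.0755) and without stretched replicate 1 (0.0903) or 2 (0.0629). Among classical products of NF-kB, the cytokine genes Tnf, Il6 and Il1b were dim and had small differences. Tnf read 5.17, 5.40 and 5.32 in the unstretched and 5.37, 5.47 and 5.23 in the stretched arrays, and its change was 0.06 (95% interval -0.15 to 0.28, adjusted p = 0.733). Il6 read 3.34, 3.26 and 3.30 in the unstretched and 3.52, 3.28 and 3.38 in the stretched arrays, with a change of 0.09 (adjusted p = 0.555). Both genes overlapped between the groups, and at such levels a true change can be lost in background. Il1b read 4.98, 4.80 and 5.02 in the unstretched and 5.15, 5.10 and 5.13 in the stretched arrays. It did not overlap, being higher in stretched cells by 0.20 (SE 0.09), and did not pass (adjusted p = 0.178).

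The remaining cytokines did not pass. Csf1, the growth factor of macrophages, was bright, with a change of -0.04 (95% interval -0.24 to 0.17, adjusted p = 0.841). Il34, the other ligand of the same receptor, was dim, with a change of -0.07 (adjusted p = 0.646). Lif, of the interleukin-6 family, had a change of 0.17 (95% interval -0.07 to 0.41). The largest difference was that of Csf2, a granulocyte and macrophage growth factor, at -0.43 (SE 0.15, adjusted p = 0.0894). It passed without unstretched replicate 3, whose value of 4.60 was the lowest unstretched one (change -0.60, adjusted p = 0.0118). Tslp, an epithelial cytokine, had a change of -0.31 (SE 0.18, adjusted p = 0.294). For Il33, an alarm signal of the interleukin-1 family, it was -0.13 (SE 0.19, adjusted p = 0.704). Il1a, the interleukin-1 receptor antagonist gene Il1rn and the granulocyte factor Csf3 had changes of -0.18, -0.01 and 0.02. Several of these varied much between replicates. The within-group SD was 0.34 for Il33, 0.32 for Tslp and 0.26 for Csf2, against a median of 0.12 over all genes.

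Saa3, whose product belongs to the serum amyloid A family of acute phase proteins and is made outside the liver, read 9.61, 9.31 and 8.90 in the unstretched and 8.18, 8.13 and 7.50 in the stretched arrays. It had the widest spread within groups of the 46 (SD 0.37), and replicate 3 was the lowest of either group. Even so the groups lay apart, and the gene fell by 1.34 (SE 0.20, limma adjusted p = 0.00151). Over the 15 alternatives its change lay between -1.53 and -1.12, and the call held in each.

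In the CC chemokine family 1 of 7 passed (14.3%, against 14.7% of all genes). Ccl20, which attracts lymphocytes and dendritic cells that carry Ccr6, read 8.66, 8.62 and 7.88 in the unstretched and 7.44, 7.34 and 7.29 in the stretched arrays. Unstretched replicate 3 was lower than the other unstretched arrays, yet above all stretched ones. The gene fell by 1.03 (SE 0.18, limma adjusted p = 0.00327), and by 1.29 without that array. Ccl2, the main attractant of monocytes, was bright and read 12.26, 12.15 and 12.11 in the unstretched and 12.43, 12.23 and 12.18 in the stretched arrays. Its groups overlapped, and the change was 0.10 with a 95% interval of -0.10 to 0.31 (adjusted p = 0.532). Ccl7, its neighbour on chromosome 11 and a ligand of the same receptor, had a change of -0.27 (SE 0.16, adjusted p = 0.302), with stretched replicate 3 lowest at 8.18. Ccl5, Ccl8, Ccl9 and Ccl11 were all dim, with changes of -0.05, -0.00178, -0.11 and -0.10.

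Among the CXC and CX3C chemokines 2 of 8 passed, and both fell (25%, against 14.7% of all genes). Of all genes 6.76% fell. Of the 8, 4 lie below the median gene, with Cxcl10 just under it. Cxcl10, an interferon-inducible attractant of T cells, read 6.33, 6.16 and 6.14 in the unstretched and 5.41, 5.08 and 5.29 in the stretched arrays. The stretched values were all well below the unstretched ones, and the gene fell by 0.95 (SE 0.10, limma adjusted p = 2.68e-04), with the call kept in all 14 alternatives that included it. Cx3cl1, a chemokine tethered to the cell membrane, read 7.21, 6.96 and 7.19 in the unstretched and 6.59, 6.25 and 6.67 in the stretched arrays. It fell by 0.62 (SE 0.12, limma adjusted p = 0.00656) without overlap between groups. With its 4 probe sets averaged the change was -0.09 and did not pass (adjusted p = 0.436). Cxcl16, the other membrane-bound chemokine, had a change of -0.23 (SE 0.14, adjusted p = 0.305).

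The neutrophil attractants had smaller differences. Cxcl1 had a change of -0.27 (SE 0.12, adjusted p = 0.177), and its groups overlapped through unstretched replicate 3. Without that array the change was -0.41 and passed (adjusted p = 0.0215). Cxcl5, a bright gene, had a change of 0.04 (95% interval -0.15 to 0.23, adjusted p = 0.810). Cxcl2 and Cxcl3 were dim, with changes of -0.11 and -0.10 (adjusted p = 0.518 and 0.528). For Cxcl12, which guides cells that carry Cxcr4, the brightest probe set had a change of 0.07 (adjusted p = 0.733). All 29 members whose groups overlapped had changes between -0.43 and 0.20.

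**Figure D3:**
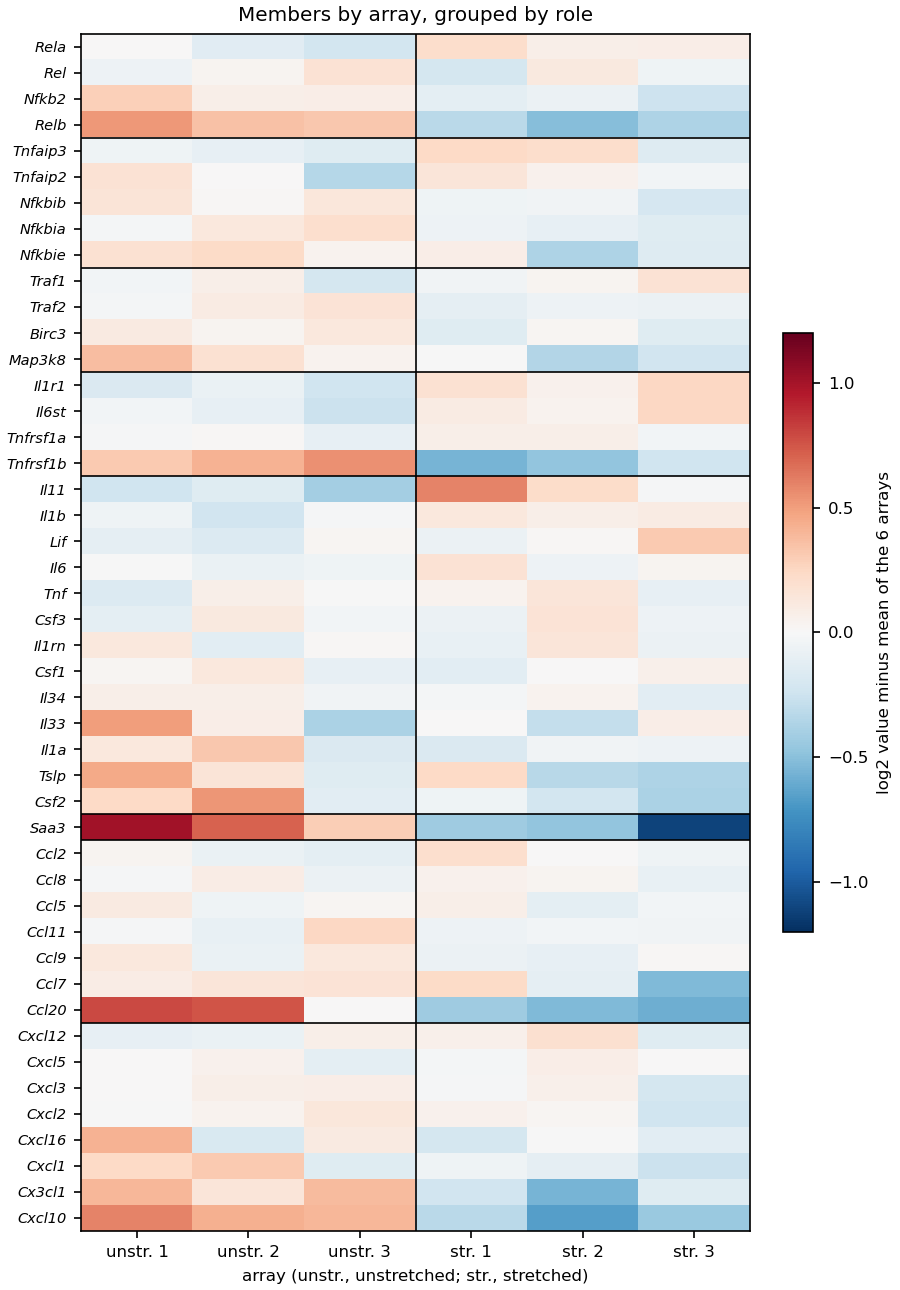
Log2 value of each of the 46 genes in each array minus that gene's mean over the 6 arrays (colour), in the role groups of the text. Saa3, Ccl20, Cxcl10, Relb and Tnfrsf1b are high in all unstretched and low in all stretched arrays, apart from Ccl20 in unstretched replicate 3, which lies near its mean, while most other genes differ little.

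More than 1 probe set reads 19 of the 46 genes, and in some of them the choice of probe set decides the result. The following were singled out after their values were seen, and their adjusted p-values are from limma over all probe sets. Of 4 probe sets for Il6st, the brightest did not pass, and the other 3 rose, by 0.54 (SE 0.13, adjusted p = 0.0247), 0.66 (SE 0.11, adjusted p = 0.00456; a probe set with the shared-probe suffix) and 0.57 (SE 0.10, adjusted p = 0.00546). The last of these read 6.63, 6.52 and 6.41 in the unstretched and 6.93, 7.18 and 7.15 in the stretched arrays, with no overlap. The average of all 4 rose by 0.51 (limma adjusted p = 0.00442).

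Cxcl12 is the sharpest case. Its 2 other probe sets fell, although the brightest one did not differ beyond its spread. All 3 were dim, with means of 5.24, 5.15 and 4.67 over all arrays. One read 5.83, 5.54 and 5.42 in the unstretched and 4.70, 4.70 and 4.69 in the stretched arrays, and fell by 0.90 (SE 0.11, limma adjusted p = 7.01e-04). In the unstretched arrays it read above the probe set that stands for the gene (5.14, 5.17 and 5.32). The other read 5.01, 4.79 and 4.96 in the unstretched and 4.29, 4.56 and 4.40 in the stretched arrays, and fell by 0.50 (SE 0.10, adjusted p = 0.00994). Neither carries the suffix that marks probes shared between transcripts, and neither overlapped between groups. With all 3 averaged Cxcl12 fell by 0.44 (limma adjusted p = 0.00542).

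Nfkbia has 5 probe sets, of which 2 fell. The one without a shared-probe suffix read 9.89, 9.62 and 9.67 in the unstretched and 9.38, 9.36 and 9.25 in the stretched arrays, and fell by 0.40 (SE 0.10, limma adjusted p = 0.0250). A second, with the suffix, fell by 0.32 (adjusted p = 0.0408), and another, also with it, had a change of 0.16 (adjusted p = 0.311). The dimmer of 2 probe sets for Nfkbie fell by 0.55 (SE 0.14, adjusted p = 0.0248). The dimmest of 4 for Csf1, with the suffix, rose by 0.49 (adjusted p = 0.0268), while the other 3 had changes of -0.04, -0.09 and 0.18. In the genes that passed, the second probe set of Tnfrsf1b had a change of -0.25 (adjusted p = 0.139), and the other 3 of Cx3cl1 had 0.23, 0.04 and -0.03. The second of Il1r1, at -0.05, was among the dimmest measured, with a mean of 3.45. Of 32 further probe sets of the 46 genes, 17 had the sign of the brightest one.

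**Figure D4:**
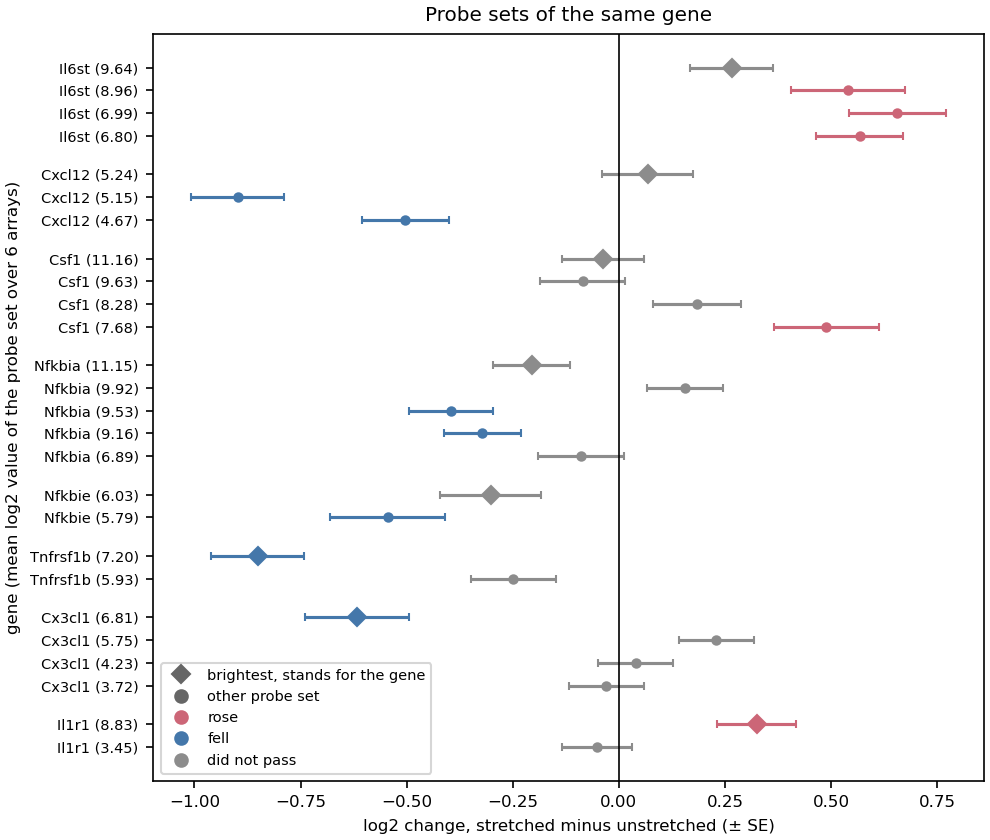
Change of every probe set of 8 genes (x axis, log2 of stretched minus unstretched, with SE; n = 3 arrays per group), from brightest to dimmest within a gene, coloured by limma over all probe sets. The 3 dimmer probe sets of Il6st and the 2 of Cxcl12 passed where the brightest did not.

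The genes were also compared by sequence before their start sites, because NF-kB dimers bind a known DNA element, the kappa B consensus. Its 10 letters, GGGRNWYYCC, were searched on both strands. Here R is A or G, W is A or T, Y is C or T and N is any base. RefSeq promoter windows of mouse build GRCm38.p6 (250 bases before to 50 after a start) were found by symbol for 35 of the 46 genes. A match to the consensus stood in 16 of 43 windows (37.2%) and in 4.51% of all 32851 windows. The 35 genes held matches at 24 distinct positions, where a site that matches on both strands at 1 position, or lies in overlapping windows, counts once. Matches that overlap at a shift of 1 base count separately, so separate sites are fewer. By gene, a consensus match was found in 2 of the 5 that fell, in 1 of the 2 that rose and in 11 of the 28 that did not pass. A match is a description of letters and not a shown binding site. Matches thus stood in genes that rose, in genes that fell and in genes that did not pass.

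The 250 bases before the start are shown for the 2 genes that fell and hold a match, with the matches in capitals, 5′ to 3′ on the gene's strand. Cxcl10 lies at chr5:92348890-92349139 on the minus strand and holds 2 matches. Ccl20 lies at chr1:83116516-83116765 on the plus strand and holds 1, in the reverse orientation.
Cxcl10: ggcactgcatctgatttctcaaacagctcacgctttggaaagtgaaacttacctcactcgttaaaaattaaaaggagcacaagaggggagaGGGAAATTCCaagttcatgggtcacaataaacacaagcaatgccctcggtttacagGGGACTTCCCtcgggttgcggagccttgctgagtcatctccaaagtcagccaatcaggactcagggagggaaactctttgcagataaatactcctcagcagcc
Ccl20: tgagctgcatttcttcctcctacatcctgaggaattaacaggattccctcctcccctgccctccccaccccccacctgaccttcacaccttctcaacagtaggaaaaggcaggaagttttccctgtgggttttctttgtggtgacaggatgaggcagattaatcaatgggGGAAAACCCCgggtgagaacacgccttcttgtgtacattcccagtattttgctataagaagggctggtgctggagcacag

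Windows of 30 bases around the match are shown for genes that rose (Il1r1) or did not pass, to set beside these. Cxcl1, Cxcl2 and Cxcl3, neighbours on chromosome 5, have the same 10 letters within 97 bases of their starts, and none of the 3 passed in limma. Il6 and Nfkbia, both known NF-kB targets, have 1 match each, and Rel has a match that reads on both strands. Cxcl1, Cxcl2, Cxcl3 and Rel also hold a match shifted by 1 base, which is not marked here.
Il1r1 (chr1:40266344-40266373, plus strand, match 232 to 223 bases before the start): cagggattttGGAATGCCCCcaaggagatg
Cxcl1 (chr5:90891164-90891193, plus strand, match 71 to 62 bases before the start): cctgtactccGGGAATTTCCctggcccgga
Cxcl2 (chr5:90903792-90903821, plus strand, match 97 to 88 bases before the start): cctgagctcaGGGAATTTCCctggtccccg
Cxcl3 (chr5:90786018-90786047, plus strand, match 73 to 64 bases before the start): gagctgcgggGGGAATTTCCccagcccggg
Il6 (chr5:30013060-30013089, plus strand, match 44 to 35 bases before the start): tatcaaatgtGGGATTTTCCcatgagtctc
Nfkbia (chr12:55492657-55492686, minus strand, match 29 to 20 bases before the start): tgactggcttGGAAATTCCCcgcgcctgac
Rel (chr11:23771042-23771071, minus strand, match 92 to 83 bases before the start): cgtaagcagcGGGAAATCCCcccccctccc

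Other genes of the pathway were read from 3 further lists. Of 43 signalling genes upstream of NF-kB 5 rose and 4 fell, or 20.9%, with a median change of -0.03. Over all genes 14.7% passed, and 33 of the 43 lie at or above the median gene, where 24.8% of all genes passed. Tnip1, which helps Tnfaip3 to dampen the pathway, fell by 0.87 (SE 0.10, limma adjusted p = 3.21e-04), and the Toll-like receptor gene Tlr2 fell by 0.70 (SE 0.12). Cflar, an inhibitor of caspase-driven death, rose by 0.48 (SE 0.08), and the nuclear IkB protein gene Nfkbiz rose by 0.42 (SE 0.08). With all probe sets of a gene averaged, neither Cflar (0.0589) nor Nfkbiz (0.0537, limma adjusted p) passed.

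Of 24 further NF-kB target genes 5 fell and 1 rose, or 25%, with a median change of -0.09. Of the 24, 11 lie at or above the median gene, where 24.8% of all genes passed, and 13 below it, where 4.69% did. The adhesion molecule gene Vcam1 read 8.90, 9.32 and 9.63 in the unstretched and 7.0004, 7.15 and 6.95 in the stretched arrays, with no overlap, and fell by 2.25 (SE 0.16, limma adjusted p = 2.00e-05). Lcn2, a carrier of bacterial iron chelators, Steap4, a metalloreductase, and Sod2, the mitochondrial superoxide dismutase, fell by 1.21, 0.96 and 0.53. Of 27 receptor genes for cytokines and chemokines 0 rose and 1 fell in limma (3.70%), with a median of -0.03, and 18 of the 27 lie below the median gene, where 4.69% of all genes passed. The gene that fell was Csf1r, the receptor for Csf1 and Il34, which read 8.79, 9.07 and 8.77 in the unstretched and 8.52, 8.31 and 8.31 in the stretched arrays and fell by 0.50 (SE 0.11, adjusted p = 0.0106). The receptors for the chemokines that fell, Ccr6, Cxcr3 and Cx3cr1, did not pass (changes 0.13, 0.00030 and 0.11), nor did the interleukin-6 and Lif receptor genes Il6ra and Lifr (0.09 and -0.19). Of these only Lifr was bright. The others were dim, with means of 4.44 to 5.29, where a true change can be lost in background.

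**Figure D5:**
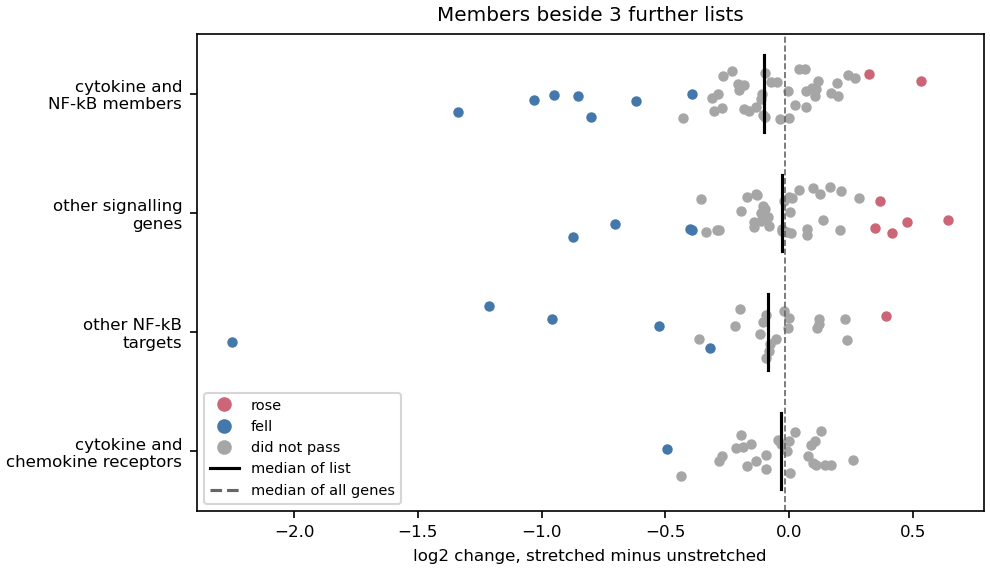
Change of every gene (x axis, log2 of stretched minus unstretched) in the 46 genes and in 3 further lists, with a black bar for each list's median and a dashed line for the median of all 18193 genes (-0.02). Among the 46 genes and the further targets, the genes with the largest changes in size are ones that fell, down to -1.34 for Saa3 and -2.25 for Vcam1.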

How the data were processed

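Total RNA of 6 samples was hybridised to Affymetrix mouse arrays. The titles gave each sample its group and number. The deposited values are log2 expression, 1 per probe set and array, made by the authors with RMA per the submitters' processing notes. RMA usually corrects background, quantile normalizes and summarises probes, so changes of dim genes are compressed, and a change in total RNA leaves no trace. No detection calls were used, so low values can be background, and the number of arrays limits precision.

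Of 45101 probe sets, 64 controls were left out, 34945 had 1 symbol in the platform annotation, 932 had several and 9160 were unnamed here. Of those with 1 symbol 34741 matched a RefSeq gene ID. The probe set with the highest mean over all arrays stood for each of 18193 genes. The groups were compared in limma 3.58.1 (lmFit, eBayes; R 4.3.3) with no covariates, by a script tested on simulated data. Only the 3' minus 5' differences of the beta-actin and Gapdh controls were compared by exact permutation. The genes and lists were chosen with earlier results of these data known. Array values are given for genes that passed or did not overlap, and for Rela, Nfkbia, Tnf, Il1b, Il6 and Ccl2 whatever they showed. Of each further list all genes that passed are named where 5 or fewer did, otherwise the 4 with the largest moderated statistic, and a few receptors were added after their values were seen. Alternatives were a fixed or random block by replicate number, leaving out each array, scaling in 3 further ways, dropping dim genes, averaging probe sets or testing every one, and a robust, trended prior.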

Additional observations from a re-analysis of the deposited data

How the results depend on the processing

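The count of genes that fell was 6 to 9 in all 15 alternatives, and Relb, Tnfrsf1b, Ccl20, Cxcl10 and Saa3 kept their calls wherever they were tested. The count that rose went from 2 to between 0 and 2 when single arrays were left out, and to 1 after quantile normalization again or with cyclic loess. It was also 1 without dim genes, a setting that leaves out Il11 itself. It was 3 with a robust, trended prior and 2 in the other alternatives. The median change of the 46 genes was -0.059 with cyclic loess. Without dim genes 25 members were left, and their median was -0.21, the same as for these 25 in the main fit. With the replicate number as a fixed block 9 genes fell and 2 rose, Csf2 and Tslp passing, and as a random block 8 fell. Deviations from the group means had correlations of 0.02, 0.15 and 0.28 between same-numbered arrays, and of -0.24 to 0.11 between differently numbered ones. The labels do not say what a replicate number shares, so the main fit used no block. Whether the numbers mark shared batches is not known.

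Upstream signalling genes that rose numbered 3 after quantile normalization again, 2 with averaged probe sets and 2 to 5 without single arrays, and those that fell 2 to 5 without single arrays. Further targets that rose numbered 2 with a robust, trended prior and 0 to 1 without single arrays. Receptor genes that rose numbered 1 and that fell 2 with that prior, and 2 fell with either replicate block and 1 to 2 without single arrays.

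Changes of sign occurred in 11 genes, none of which had passed as reported: with averaged probe sets Tnfaip2 (-0.017), Csf1 (0.14), Cxcl12 (-0.44); with cyclic loess Tnfrsf1a (-0.00110), Il1rn (0.024), Ccl8 (0.031), Cxcl5 (-0.030); with median centring Il1rn (0.023), Ccl8 (0.027); with quantile normalization again Il1rn (0.027), Ccl8 (0.029), Cxcl5 (-0.036). Without single arrays the changes ranged, for Tnfaip2 -0.038 to 0.22, Tnf -0.000148 to 0.13, Il1rn -0.080 to 0.055, Il33 -0.36 to 0.085, Csf1 -0.095 to 0.016, Csf3 -0.056 to 0.089, Ccl8 -0.038 to 0.042, Ccl11 -0.17 to 0.00479, Cxcl5 -0.00641 to 0.074, Cxcl12 -0.011 to 0.16.

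Of the 37 genes that did not pass, 7 (Nfkb2, Nfkbia, Nfkbie, Il6st, Csf2, Cxcl1 and Tslp) passed in at least 1 alternative, and Cxcl12 passed with its sign turned. Signal over background is unknown, which limits what can be said of dim genes such as Tnf, Il6, Cxcl2 and Cxcl3. The causes of these shifts were not tested.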
